A study of Drosophila melanogaster with 6 samples.

Results

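Transcript levels of 9 temporal patterning factors of Drosophila neural stem cells were followed in RNA-seq counts from brains of female late L3 (last-stage) larvae, aged 96 h after egg laying at 29 °C. The 9 genes were taken by name from a table of 14150 genes: cas, svp, Imp and chinmo as early factors, Syp, br, Eip93F and mamo as late factors, and dati beside them. All 9 were found and all 9 passed the expression filter, which left 10074 genes for the test. In the CIN group, whose name stands for the chromosomal instability of the series title, larvae of genotype w; worniu-gal4, UAS-bub3-i carried RNAi against the spindle assembly checkpoint gene Bub3. In the ctrl group, larvae of genotype w; worniu-gal4, UAS-gfp-i carried RNAi against gfp, a gene that flies lack. The worniu driver acts in neuroblasts, the neural stem cells, whereas the RNA came from whole brains. Each group held 3 libraries, 1 per batch (4, 5 and 6), each from 3 brains, and the batches were different days.

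Neuroblasts change the transcription factors and RNA-binding proteins they express as they age, and each neuron keeps features of the time window in which it was born. In larval neuroblasts, brief expression of cas and svp precedes a switch, aided by the ecdysone receptor, from high Imp and low Syp to low Imp and high Syp. Imp promotes chinmo, which marks early windows and early-born neurons, while Syp represses it and accompanies the late factors br and Eip93F. In the mushroom body, mamo marks an intermediate window and needs Syp for its expression. Most of these factors are also present in neurons or in other tissues, so levels in whole brains are sums over many cells.

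The RNAi target was lower in the libraries labelled CIN. Bub3 had 80.2, 96.5 and 91.5 CPM (counts scaled to library size) in CIN 4, 5 and 6, against 149, 123 and 144 CPM in ctrl 4, 5 and 6. The log2 fold change was -0.63 ± 0.13 (SE), which missed the threshold of 0.05 in edgeR's quasi-likelihood F test (adjusted p = 0.333, Benjamini-Hochberg over all tested genes) but not in DESeq2 (adjusted p = 0.00364). Depth was alike, at 24668180 to 26292208 counts per library. Tissue carried with the brains varied between libraries. The 6 measured ring gland markers, genes of the endocrine source of ecdysone, had summed levels of 26.5 CPM in CIN 5, 32.7 CPM in ctrl 4 and 1126 to 3635 CPM elsewhere, and among them jhamt was at 0 in CIN 5. The 3 transcripts of male dosage compensation, lncRNA:roX1, lncRNA:roX2 and msl-2, summed to 1032 CPM in CIN 5 and to 192 to 492 CPM in the others, while all larvae were described as female. Summed levels of 5 salivary gland markers were 2.02 to 17.5 CPM in CIN and 19.7 to 76.6 CPM in ctrl, and those of 6 fat body markers were 18.2 to 93.3 CPM in CIN and 28.5 to 486 CPM in ctrl, highest in ctrl 4.

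The comparison of CIN with ctrl asked whether Bub3 RNAi in neuroblasts goes with other levels of the temporal factors. Of the 9 factors, dati fell in CIN, cas was lower by a similar amount without passing edgeR's test, and the remaining 7 had estimated differences of at most 1.53-fold. The groups did not overlap for cas, chinmo and dati, all 3 of them lower in CIN, and overlapped for the other 6. Across all tested genes, 8.18% had every CIN library below every ctrl library and 7.1% the reverse. By edgeR's quasi-likelihood test (adjusted p under 0.05), 1 of the 9 was called lower, against 0.0496% of all tested genes, and 0 of the 9 higher, against 0.0496% again. The called gene was dati, and 0 of the 4 early and 0 of the 4 late factors were called. The 9 genes were chosen with earlier results of these data known. DESeq2 called 2 lower, dati and cas, against 0.546% of all tested genes, and 0 higher, against 0.516%. At an unadjusted p under 0.05, edgeR put 3 of the 9 lower, against 3.76% of tested genes, and 0 higher, against 4.13%. The median log2 fold change was -0.11 over the 9 factors and 0.01 over all tested genes. The groups carried different RNAi transgenes, so a difference between fly stocks and an effect of the knockdown cannot be told apart.

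**Figure D1:**
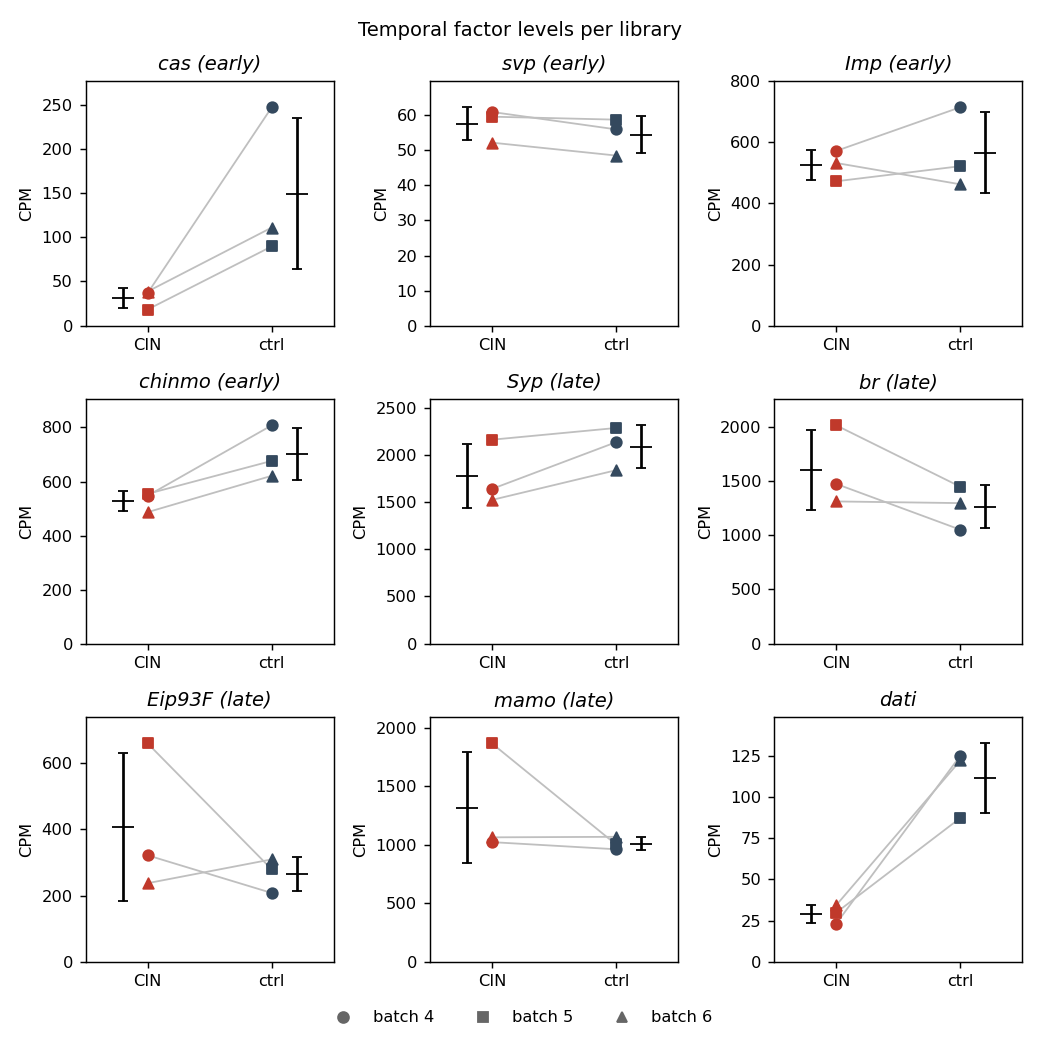
CPM of each of the 9 temporal factors (vertical axes, each starting at 0) in CIN and ctrl libraries. Each symbol is 1 library, grey lines join libraries of the same batch, and the horizontal marks with bars are the group mean ± SD (n = 3). The CIN values of cas, chinmo and dati all lie below the ctrl values, and CIN 5 is the highest library for br, Eip93F and mamo.

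The early factor cas, a zinc finger gene of the embryonic temporal series that acts again early in larval life, lay at 3R:5712975-5716805 (dm6) and overlapped no other gene of the table. It measured 36.7, 18.2 and 38.5 CPM in CIN 4, 5 and 6, against 247, 89.6 and 111 CPM in ctrl 4, 5 and 6. The highest CIN value was thus under the lowest ctrl value, and ctrl 4 stood above the other ctrl libraries. Means were 31.1 ± 11.3 CPM in CIN and 149 ± 85.4 CPM in ctrl (SD, n = 3 each). The log2 fold change of -2.26 ± 0.46 (SE) had a 95% interval of -3.35 to -1.17, a 4.79-fold lower level in CIN. Over all genes, it missed the threshold in edgeR (adjusted p = 0.366) and passed it in DESeq2 (adjusted p = 2.47e-05). Within batches 4, 5 and 6 the log2 differences were -2.75, -2.30 and -1.52. Without ctrl 4 the log2 fold change was -1.69 (edgeR, adjusted p = 0.560), and leaving out ctrl 4 together with CIN 5 it was -1.42 (edgeR, adjusted p = 0.197). In whole brains, fewer cells of a type and less RNA per cell cannot be told apart.

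Neuroblast marker levels were also lower on average in CIN, by less than cas. The 6 markers dpn, wor, ase, mira, insc and klu summed to 229, 344 and 403 CPM in CIN 4, 5 and 6, against 602, 425 and 441 CPM in ctrl 4, 5 and 6. The largest part of each sum was mira, with 102, 159 and 206 CPM in CIN 4, 5 and 6 and 319, 204 and 241 CPM in ctrl 4, 5 and 6. All 6 were lower on average in CIN, as were 4904 of the 10074 tested genes, with a median log2 fold change of -0.57 for the 6. Their median log2 differences within batches 4, 5 and 6 were -1.24, -0.33 and -0.02. Of the 6, 0 passed edgeR or DESeq2. At an unadjusted p under 0.05 in edgeR, 2 were lower, mira and klu, against 3.76% of tested genes. Set against this sum, cas stood at 16.0%, 5.28% and 9.56% in CIN 4, 5 and 6, against 41.1%, 21.1% and 25.2% in ctrl 4, 5 and 6, so the groups stayed apart on this scale too. The ratio of the group means was -1.50 on the log2 scale, for a measure chosen after the levels were seen and not tested.

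The nuclear receptor gene svp, at 3R:12258737-12302785, had the smallest estimated difference of the early factors. It had 61.0, 59.6 and 52.2 CPM in CIN 4, 5 and 6, against 56.0, 58.8 and 48.5 CPM in ctrl 4, 5 and 6, and the groups overlapped. The log2 fold change of 0.08 ± 0.12 (SE; edgeR, adjusted p = 0.867) had a 95% interval of -0.21 to 0.37.

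Imp, at X:10787869-10824277, encodes the RNA-binding protein of the early window. It had 572, 472 and 532 CPM in CIN 4, 5 and 6, against 715, 522 and 463 CPM in ctrl 4, 5 and 6. CIN was lower in batches 4 and 5 and higher in batch 6. The log2 fold change was -0.11 ± 0.19 (SE; edgeR, adjusted p = 0.893), with a 95% interval of -0.56 to 0.34, and without ctrl 4 its sign turned (0.09; edgeR, adjusted p = 0.902).

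The BTB zinc finger gene chinmo, at 2L:1651258-1704682, acts in early windows and in early-born neurons. It had 547, 554 and 487 CPM in CIN 4, 5 and 6, against 808, 676 and 621 CPM in ctrl 4, 5 and 6. Every CIN library lay below every ctrl library, a pattern shared by the 8.18% of tested genes given above. Means were 529 ± 37.3 CPM in CIN and 702 ± 96.0 CPM in ctrl (SD, n = 3 each). The log2 fold change of -0.41 ± 0.14 (SE), 1.33-fold lower in CIN, did not pass edgeR (adjusted p = 0.603) or DESeq2 (adjusted p = 0.240). Against the summed neuroblast markers the groups overlapped, with 239%, 161% and 121% in CIN 4, 5 and 6 and 134%, 159% and 141% in ctrl 4, 5 and 6.

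Among the late factors, none of the 4 passed edgeR's test or DESeq2, and none reached an unadjusted p under 0.05. Syp, the RNA-binding protein gene that opposes Imp, lay at 3R:20756729-20810726 and had 1638, 2160.2 and 1522 CPM in CIN 4, 5 and 6, against 2134, 2285 and 1837 CPM in ctrl 4, 5 and 6. CIN was lower in each batch, while the groups overlapped because CIN 5 exceeded ctrl 4 and ctrl 6. The log2 fold change was -0.23 ± 0.17 (SE; edgeR, adjusted p = 0.749), with a 95% interval of -0.65 to 0.18.

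The other late factors were estimated higher in CIN, with CIN 5 as the highest library of each and ctrl 4 as the lowest. The ecdysone-responsive BTB zinc finger gene br, at X:1575132-1664869, had 1472, 2012 and 1311 CPM in CIN 4, 5 and 6, against 1050.0, 1446 and 1295 CPM in ctrl 4, 5 and 6. Eip93F, an ecdysone-induced transcription factor gene of the last window at 3R:21949114-22014539, had 322, 660.2 and 237 CPM in CIN 4, 5 and 6, against 208, 279 and 309.5 CPM in ctrl 4, 5 and 6. The zinc finger gene mamo, at X:13846116-13990527, had 1022, 1866 and 1063 CPM in CIN 4, 5 and 6, against 961, 1002 and 1067 CPM in ctrl 4, 5 and 6. Outside CIN 5, the values of Eip93F and mamo in CIN lay within or close to the range of ctrl. The log2 fold changes were 0.34 ± 0.21 for br, 0.61 ± 0.38 for Eip93F and 0.38 ± 0.25 for mamo (SE; edgeR, adjusted p = 0.709, 0.711 and 0.715). Their 95% intervals were -0.15 to 0.83, -0.28 to 1.51 and -0.20 to 0.97. Without CIN 5 these estimates were 0.14, 0.07 and 0.04 (edgeR, adjusted p = 0.875, 0.950 and 0.946).

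**Figure D2:**
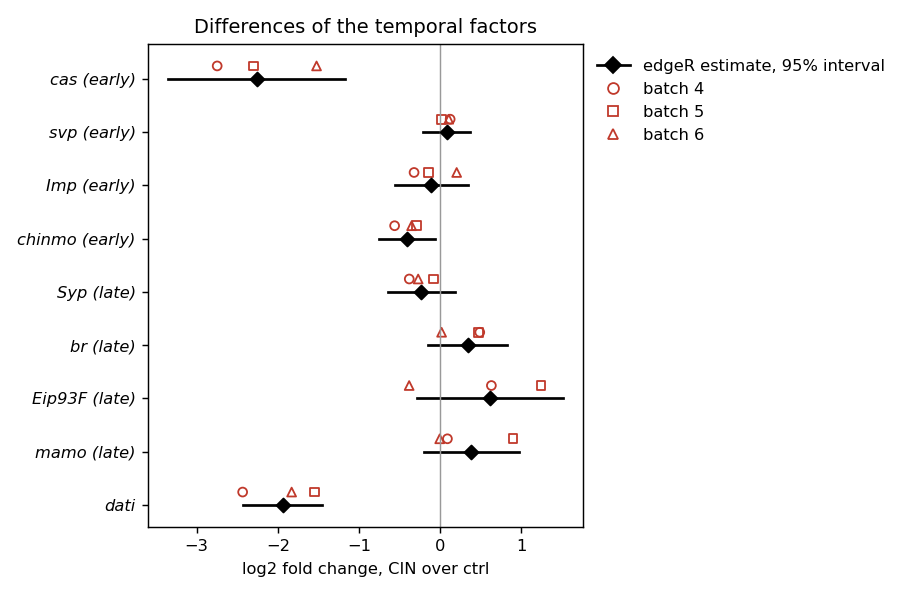
Log2 fold change of CIN over ctrl (horizontal axis) for each temporal factor. Black diamonds with lines are edgeR estimates with 95% intervals, and open red symbols above them are the log2 CPM differences within each batch. For cas, chinmo and dati the interval and all 3 batches lie below 0, whereas the batch values of Imp, Eip93F and mamo lie on both sides of 0.

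CIN 5 was high for genes of the ecdysone response too. Of 12 ecdysone receptor and response genes, 8 had their highest level in CIN 5, as did 3 of the 4 late factors, against 24.2% of all tested genes, a comparison chosen after the levels were seen. Hr4, a nuclear receptor gene of the response, had 15.7, 105 and 30.8 CPM in CIN 4, 5 and 6, against 9.97, 20.5 and 22.6 CPM in ctrl 4, 5 and 6. Blimp-1, an ecdysone-inducible repressor gene, had 2.39, 27.9 and 3.45 CPM in CIN 4, 5 and 6, against 1.13, 5.64 and 3.19 CPM in ctrl 4, 5 and 6. The nuclear receptor gene ftz-f1 is expressed when ecdysone has declined. It had 39.98, 23.6 and 31.97 CPM in CIN 4, 5 and 6, against 45.6, 25.6 and 24.7 CPM in ctrl 4, 5 and 6. For ftz-f1, CIN 5 was thus the lowest library, but close to ctrl 5 and ctrl 6. CIN 5 was also the library with the lowest ring gland marker sum and the highest male dosage compensation sum, both given above. The ring gland marker sum was nearly as low in ctrl 4, at 32.7 CPM against 26.5 CPM in CIN 5. Yet ctrl 4 was the lowest library for br, Eip93F, mamo, Hr4 and Blimp-1, and the highest for ftz-f1. The part of the tissue carried along and of the male transcripts in the levels of br, Eip93F and mamo was not tested.

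**Figure D3:**
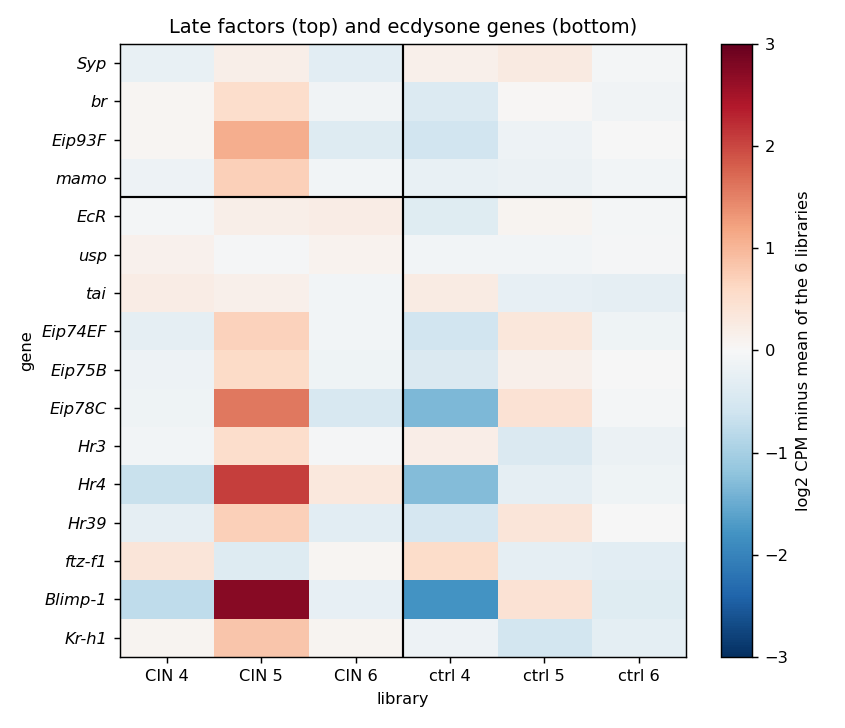
Log2 CPM of the 4 late factors (above the horizontal line) and 12 ecdysone receptor and response genes (below it) in the 6 libraries, each as its difference from the gene's mean over the libraries (colour scale). CIN 5 is the highest library for br, Eip93F, mamo and 8 of the 12 ecdysone genes.

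The zinc finger transcription factor gene dati fell in CIN. It lies on the small chromosome 4, at 4:375640-395605 on the minus strand, and is known in flies for a role in female mating behaviour. It had 23.1, 29.8 and 34.3 CPM in CIN 4, 5 and 6, against 125, 87.3 and 122 CPM in ctrl 4, 5 and 6, from 579 to 3135 counts per library. Every CIN library lay below every ctrl library. Means were 29.0 ± 5.64 CPM in CIN and 111 ± 21.0 CPM in ctrl (SD, n = 3 each). The difference was -1.94 ± 0.21 on the log2 scale (SE; edgeR, adjusted p = 0.0426), with a 95% interval of -2.43 to -1.45, and DESeq2 gave an adjusted p of 1.16e-14. Within batches 4, 5 and 6 the log2 differences were -2.43, -1.55 and -1.83. With batch as a replicate block the estimate was -1.94 ± 0.20 but the call was lost (edgeR, adjusted p = 0.158), and that fit called 0 genes in all, with 3.98% of tested genes lower at an unadjusted p under 0.05. Leaving out any 1 of the 6 libraries also ended the call, with log2 fold changes of -2.09 to -1.80 and adjusted p-values of 0.0891 to 0.330 by edgeR.

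The summed level of neuron markers overlapped between the groups, unlike that of dati. The 7 markers elav, nSyb, Syt1, brp, para, cac and fne summed to 2601, 3283 and 3106 CPM in CIN 4, 5 and 6, against 3109.9, 3250.5 and 3593 CPM in ctrl 4, 5 and 6, and their median log2 fold change was 0.06. The largest part of each sum was fne, an RNA-binding protein gene, with 1053, 1111 and 985 CPM in CIN 4, 5 and 6 and 1401, 1404 and 1707 CPM in ctrl 4, 5 and 6. It was lower by DESeq2 (adjusted p = 0.0188) and not by edgeR (adjusted p = 0.487). At an unadjusted p under 0.05 in edgeR, 2 of the 7 were lower, fne and para, against 3.76% of tested genes, and 0 higher, against 4.13%. By adjusted p, para passed neither edgeR (0.603) nor DESeq2 (0.396). Set against the summed neuron markers, dati stood at 0.887%, 0.907% and 1.10% in CIN 4, 5 and 6, against 4.02%, 2.68% and 3.40% in ctrl 4, 5 and 6. Set against the summed neuroblast markers, it stood at 10.1%, 8.64% and 8.50% in CIN 4, 5 and 6, against 20.8%, 20.5% and 27.7% in ctrl 4, 5 and 6. The groups were apart on both scales, which were chosen after the levels were seen and not tested. Of the exon bases of dati, 3.40% are shared with the antisense gene asRNA:CR44027, whose own row held 0 to 6 counts per library.

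Taking early and late factors against each other, the balance of Imp to Syp did not separate the groups, and the mean of all 4 early against all 4 late factors separated them only with cas among the early factors and dati outside the late ones. These differences within a library do not depend on how libraries are scaled, and scores over the factors were not tested. Imp minus Syp, in log2 CPM, was -1.52, -2.19 and -1.52 in CIN 4, 5 and 6, against -1.58, -2.13 and -1.99 in ctrl 4, 5 and 6. The means were -1.74 ± 0.39 in CIN and -1.90 ± 0.29 in ctrl (SD, n = 3 each), closer than the spread within either group. Mean early minus mean late level was -2.54, -3.55 and -2.48 in CIN 4, 5 and 6, against -1.45, -2.24 and -2.25 in ctrl 4, 5 and 6, so the groups did not overlap. The means were -2.85 ± 0.60 in CIN and -1.98 ± 0.46 in ctrl (SD, n = 3 each). The differences within batches 4, 5 and 6 were -1.08, -1.31 and -0.23. Without cas, which had the largest difference of the 8 genes, the score was -1.82, -2.60 and -1.82 in CIN 4, 5 and 6, against -1.36, -1.83 and -1.97 in ctrl 4, 5 and 6. The groups then overlapped, and the differences within batches were -0.46, -0.77 and 0.15, a setting chosen after the levels were seen. With dati counted among the late factors, the score was -1.47, -2.41 and -1.55 in CIN 4, 5 and 6, against -0.91, -1.54 and -1.66 in ctrl 4, 5 and 6. Here too the groups overlapped, and the differences within batches were -0.56, -0.87 and 0.10, so that batch 6 turned its sign in both settings.

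**Figure D4:**
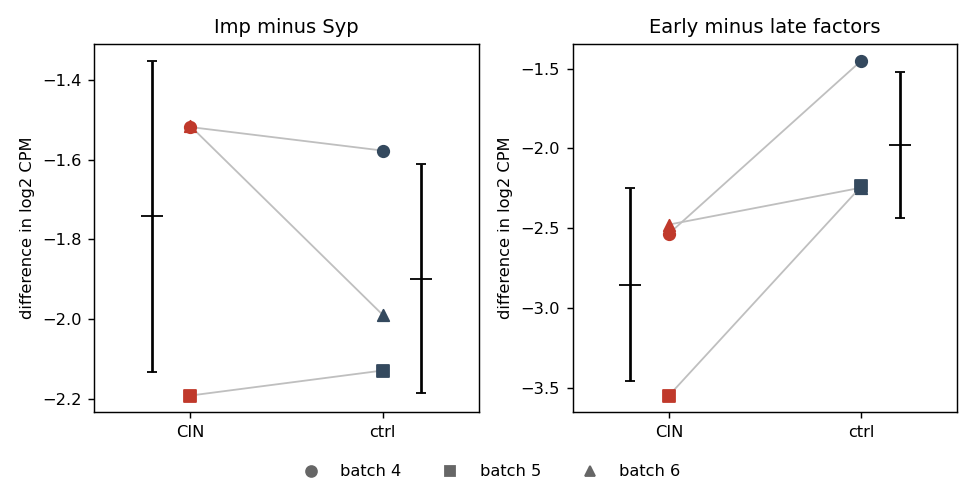
Difference in log2 CPM between Imp and Syp (left) and between the means of the 4 early and the 4 late factors (right), per library. Symbols are libraries by batch, grey lines join the same batch, and black marks with bars are group means ± SD (n = 3). On the left the groups overlap, and on the right the 3 CIN values, -3.55 to -2.48, lie below the 3 ctrl values, -2.25 to -1.45, which no longer held without cas or with dati among the late factors.

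Levels were compared between genes as RPKM, the CPM divided by the kilobases of annotated exon. Exons of all annotated transcripts of a gene were merged for this, giving from 3151 bases for cas to 29476 for mamo. The order between genes depends on that length, whichever transcripts were present. Syp had the highest level of the 9 in both groups, at 158 ± 30.3 RPKM in CIN and 186 ± 20.3 RPKM in ctrl (SD, n = 3 each), and br came next with 79.1 ± 18.2 RPKM in CIN and 62.6 ± 9.89 RPKM in ctrl. In CIN, the levels of mamo, chinmo, Imp and Eip93F followed at 44.7, 42.0, 38.5 and 32.0 RPKM, and neighbours in this order overlapped. They were followed in CIN by svp and cas at 10.3 and 9.88 RPKM, which overlapped, and by dati at 4.70 RPKM. In ctrl, br, chinmo, cas, Imp and mamo lay at 62.6, 55.6, 47.4, 41.5 and 34.3 RPKM, and each overlapped the next. The lower end of the order in ctrl was Eip93F at 20.9 and dati at 18.1 RPKM, which overlapped, then svp at 9.73 RPKM. The places of cas and dati in the order thus differed between the groups: cas lay level with svp in CIN and above it in ctrl, and dati lay below svp in CIN and above it in ctrl.

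The genes differ widely in structure in the Ensembl annotation of the same assembly. The shortest is cas, which spans 3831 bp with 2 annotated transcripts, and the longest is mamo, which spans 144412 bp with 7. Syp has 20 annotated transcripts, br 16 and Imp 12, and the counts add all of a gene's transcripts together. In br, 189 exon bases, 0.936% of its exon length, are shared with Mur2B on the opposite strand, whose own row held 255 to 395 counts per library against 26114 to 50815 for br. The remaining 7 members share no exon base with another gene of the table.

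Genes of other temporal series, of neuroblasts or of intermediate progenitors, were listed without the 9 factors. Thus cas, which DESeq2 called lower, is not counted again with the embryonic series it belongs to. Of the 5 other genes of the embryonic series (hb, Kr, nub, pdm2 and grh), 0 passed edgeR or DESeq2. At an unadjusted p under 0.05 in edgeR, 1 was higher, against 4.13% of tested genes. That gene was pdm2, a POU factor gene, with 5.30, 14.2 and 7.23 CPM in CIN 4, 5 and 6, against 2.25, 5.07 and 4.67 CPM in ctrl 4, 5 and 6. The most abundant genes of this series were grh and Kr, with log2 fold changes of -0.43 ± 0.23 and 0.04 ± 0.23 (SE; edgeR, adjusted p = 0.687 and 0.976). Of the 4 measured genes of the intermediate progenitor series (D, grh, ey and opa), 0 passed either test or reached an unadjusted p under 0.05, with a median log2 fold change of -0.34. D and grh, the most abundant of them, had log2 fold changes of 0.53 ± 0.33 and -0.43 ± 0.23 (edgeR, adjusted p = 0.711 and 0.687). Of the 8 measured genes of the medulla series, 0 passed either test or reached an unadjusted p under 0.05, with a median of -0.12. Its most abundant genes, hth and D, had log2 fold changes of -0.11 ± 0.17 and 0.53 ± 0.33 (edgeR, adjusted p = 0.875 and 0.711).

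Among regulators and targets of Imp and Syp (lin-28, Myc, pros, dan and danr), lin-28 lay under the expression filter. The other 4 all had negative log2 fold changes, as had 4904 of the 10074 tested genes. Of these 4, edgeR called 1 lower and 0 higher, each against 0.0496% of all tested genes. The fall was that of pros, the homeodomain factor gene of neuroblast daughter cells whose transcript Syp stabilises, with 759, 1299 and 909 CPM in CIN 4, 5 and 6, against 4808, 4160.1 and 4551 CPM in ctrl 4, 5 and 6 (log2 fold change -2.19 ± 0.22 (SE), edgeR adjusted p = 0.0422, and 0.162 with the replicate block). Myc, the growth regulator whose transcript Imp stabilises, differed by -0.13 ± 0.23 on the log2 scale (edgeR, adjusted p = 0.890). Among the 12 ecdysone receptor and response genes, 11 had positive log2 fold changes, against 5170 of the 10074 tested genes, with a median of 0.24 for the list. Of the 12, 0 passed edgeR or DESeq2. At an unadjusted p under 0.05 in edgeR, 1 was higher, the zinc finger gene Kr-h1, against 4.13% of tested genes. The most abundant, Eip75B and EcR, had log2 fold changes of 0.21 ± 0.25 and 0.22 ± 0.15 (edgeR, adjusted p = 0.833 and 0.730). The median of this list was 0.09 with ctrl 4 and CIN 5 left out.

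**Figure D5:**
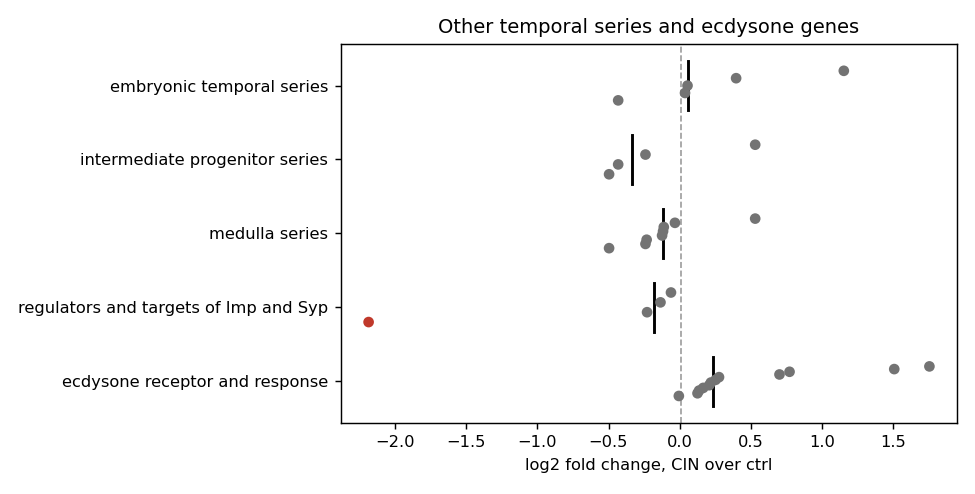
Log2 fold change of CIN over ctrl (horizontal axis) for each tested gene of 5 lists (rows). Points are genes, red where edgeR's adjusted p was under 0.05, black bars are list medians and the dashed line is the median of all tested genes. The only red point is pros, at -2.19.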

How the data were processed

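Polyadenylated RNA of 6 larval brain libraries was sequenced after 13 cycles of amplification with a kit that does not mark strand, per the labels' protocols. The authors deposited whole-number counts per gene, not normalized. Trim Galore, STAR 2.7.10a, featureCounts and the dm6 build are named in the submitters' processing notes, with settings and counting annotation not given in the sources used here. No aligned reads were used, so isoforms were not separated.

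FlyBase identifiers were matched to symbols for 14074 of 14150 genes. Oaz, scro and nvd were not matched by symbol and are not analysed here, and phm was matched as phtm. Coordinates and exon lengths come from the Ensembl annotation of assembly BDGP6.54, in dm6 coordinates counted from 1. Genes were kept by filterByExpr, scaled by TMM and tested with edgeR 4.0.16 (glmQLFit, glmQLFTest, genotype only, two-sided, Benjamini-Hochberg over 10074 genes, threshold 0.05) in R 4.3.3. The SE is the fold change's size over the square root of F. The fitting code was also run on simulated counts with the same dispersion for every gene and no batch effect or outlying library. That run cannot show how the fit behaves where single libraries stand apart, and its outcome is not given here. Log2 CPM values carry a prior count of 2. An exact permutation test of 3 against 3 libraries cannot go below 0.1, so none was run. The common biological coefficient of variation was 0.321.

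The members and lists were chosen with earlier results of these data known. All 9 members are named, with called or otherwise the 2 most abundant genes of each list, genes within 50 kb of dati and cas at an unadjusted p under 0.01, and, for members with a log2 fold change of at least 1 in size, the 3 tested genes of at least 5 CPM most like them. Hr4, Blimp-1, ftz-f1, Kr-h1, pdm2, Hcf, mira, klu, fne and para were named with their values known. The batch number, given by the labels and described as separate days, pairs the libraries. Departures from the group means correlated between partners across genes at 0.038, -0.062 and 0.175 in batches 4, 5 and 6. Between CIN and ctrl libraries of different batches they correlated at -0.201 to 0.103. Alternatives were no filter, RLE size factors, no TMM, 1 CPM in 3 libraries, DESeq2 1.42.0, limma-voom (limma 3.58.1), the batch as replicate block and each library left out. Leaving out both ctrl 4 and CIN 5 was chosen after seeing the data.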

Additional observations from a re-analysis of the deposited data

How the results depend on the processing

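The call of dati held with RLE size factors, without a filter, with the 1 CPM filter, with DESeq2 and with limma-voom, and its log2 fold change stayed between -2.09 and -1.80 in every setting run. It was lost without TMM (edgeR, adjusted p = 0.0676), with the replicate block (0.158), without each single library (0.0891 to 0.330) and without both ctrl 4 and CIN 5 (0.302). The number of temporal factors called lower was therefore 1, against 0 in each of those settings and 2 with DESeq2; it was 0 to 0 when single libraries were left out. Over all genes, 5 were called higher and 5 lower, against 52 and 55 with DESeq2, 0 and 0 with the replicate block, and 5 lower against 10 with the 1 CPM filter. Without single libraries 0 to 0 were called higher and 1 to 3 lower, and without both ctrl 4 and CIN 5, 4 higher and 3 lower. Signs turned for Imp without ctrl 4 (0.0929) and without both libraries (0.162), and for Eip93F without both (-0.0771); the cause was not tested. The early minus late score, -0.88 over all libraries, was -0.23 in batch 6 alone and -1.06 to -0.53 when single libraries were left out. It was -0.44 with dati among the late factors (0.10 in batch 6) and -0.36 without cas (0.15 in batch 6), leaving out cas being a choice made after the data were seen; Imp minus Syp, 0.16, was 0.04 to 0.38. The replicate block changed no other call among the temporal factors. The 9 genes had 459 to 56314 counts per library.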

Other observations

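Of the 6 tested genes within 50 kb of dati, 4 were lower and 2 higher on average in CIN, with a median log2 fold change of -0.08, against 0.01 over all tested genes. The lower lncRNA:CR44024 and Rnf11 had an unadjusted p under 0.01, as did 1.87% of all tested genes. The non-coding gene lncRNA:CR44024, 31726 bp away, had 22.6, 8.04 and 23.5 CPM in CIN 4, 5 and 6, against 71.3, 45.3 and 48.6 CPM in ctrl 4, 5 and 6, a difference of -1.61 ± 0.41 (SE) on the log2 scale, with an adjusted p of 0.480 by edgeR and 0.00871 by DESeq2. Rnf11, 44253 bp away, had 33.7, 33.6 and 28.9 CPM in CIN 4, 5 and 6, against 45.9, 44.9 and 41.6 CPM in ctrl 4, 5 and 6 (log2 fold change -0.46 ± 0.11; edgeR, adjusted p = 0.468; DESeq2, adjusted p = 0.0885). Hcf, which lies 86 bp from dati, differed by -0.10 ± 0.11 on the log2 scale (edgeR, adjusted p = 0.831). PMCA, lgs and CaMKI, the other 3, had log2 fold changes of 0.24, 0.08 and -0.06. Of the 13 tested genes within 50 kb of cas, 0 reached an unadjusted p under 0.01, and none of the 13 was called by edgeR or DESeq2.

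Profiles most like those of cas and dati were sought among 7846 tested genes of at least 5 CPM, by Pearson's r of log2 CPM over the 6 libraries, which share the group difference. For cas these were lncRNA:cherub (r = 0.993), Nup188 (0.991) and CG9588 (0.989). The non-coding RNA lncRNA:cherub, known from asymmetric division of neuroblasts, had 1728, 645 and 1655 CPM in CIN 4, 5 and 6, against 9650.1, 4157 and 4237 CPM in ctrl 4, 5 and 6. Its log2 fold change was -2.16 ± 0.49 (SE), with an adjusted p of 0.393 by edgeR and 1.33e-04 by DESeq2. Like cas, it was lowest in CIN 5 and highest in ctrl 4, a likeness by which it was chosen. For dati they were Wee1 (r = 0.992), bab1 (0.989) and MrgBP (0.987). The BTB transcription factor gene bab1 had 9.05, 9.50 and 10.5 CPM in CIN 4, 5 and 6, against 21.1, 18.0 and 24.6 CPM in ctrl 4, 5 and 6 (log2 fold change -1.13 ± 0.17; edgeR, adjusted p = 0.145; DESeq2, adjusted p = 1.27e-05), whereas Nup188, CG9588, Wee1 and MrgBP had log2 fold changes of -0.19 to -0.11.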
